A study of Rattus norvegicus with 6 samples.

Results

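The DEAD and DEAH box helicase genes were taken as every row of the gene count table of the known-gene type whose symbol begins with Ddx or Dhx and a number. The rule found 49 genes, 33 with a Ddx and 16 with a Dhx symbol, of 14622 known genes and 24360 gene rows in all. RNA came from 6 samples of H9c2, a wild-type rat line derived from embryonic heart, of which 3 are labelled ginsenoside Rb2 (Rb2), a ginseng saponin, and 3 are labelled NC (Ctrl). The treatment text is shared by all samples: Rb2 for 48 h, then 4 to 6 h without oxygen and glucose, then 12 h with both restored. It does not say whether Ctrl cells went through the deprivation, and no label says that replicates were separate cultures, so a p-value here may reflect technical spread alone.

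Proteins of the DEAD and DEAH box families share a core of paired RecA-like domains that binds RNA and ATP. They are named for the amino acids of a motif in that core. The genes here were taken by symbol alone without reading the motif of each, and they include Ddx11, a DNA helicase. DEAD box members open short duplexes locally and clamp RNA, whereas DEAH box members pull on single strands and are often switched on by G-patch proteins. They drive the steps of the spliceosome, the assembly of ribosomal subunits in the nucleolus, the export, translation and decay of mRNA, and the sensing of viral RNA.

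Total counts ran from 5193077 to 5570308 in Rb2 samples and from 5787587 to 8793390 in Ctrl samples, so that a count of 3, the limit a count of 0 allows, was 0.364 to 0.552 TMM-scaled CPM (counting error only). On the first principal component, which held 42.3% of the variance, Rb2 samples lay at 18.1, 23.8 and 22.6 and Ctrl replicates 1 to 3 at -47.0, -18.1 and 0.56. Ctrl replicate 1 therefore stands apart, and results are also given without it. It is also the deepest library, at 8793390 counts against 5881914 and 5787587 in Ctrl replicates 2 and 3. The part of depth was not tested. Of 7 cardiomyocyte markers with a row, Actc1 had no count, Myh7 at most 1 and Tnni3 at most 2. Tnnt2 was at 42.1 to 49.6 CPM in Rb2 and 48.0 to 61.4 CPM in Ctrl, with overlap, as had Gata4 and Nkx2-5. Myh6 did not overlap, at 1.39 to 1.84 CPM in Rb2 and 0.97 to 1.27 CPM in Ctrl. It had at most 10 counts in a library, and its part in the helicase results was not tested. Summed, these 7 genes were at 54.5 to 63.8 CPM in Rb2 and 56.1 to 74.3 CPM in Ctrl. The labelled cell type, embryonic cardiomyocyte, was thus carried by few of its contractile markers. The myoblast marker Myod1 was at 12.3 to 19.9 CPM in Rb2 and 11.9 to 12.9 CPM in Ctrl, and 5 of 6 such markers summed to 37.4 to 44.2 CPM in Rb2 and 30.8 to 39.9 CPM in Ctrl. Fibroblast markers, with Dcn at 0, summed to 3452 to 3865 CPM in Rb2 and 2905 to 3825 CPM in Ctrl. Of these, Col3a1 did not overlap, at 1081 to 1242 CPM in Rb2 and 843.1 to 987.2 CPM in Ctrl, and its part in the helicase results was not tested. In bulk samples, fewer cells of a type and less RNA per cell cannot be told apart.

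Of the 49 genes, 42 passed the filter on low counts and 7 did not. In the 42, 5 were higher in Rb2, none was lower and 37 did not pass (edgeR quasi-likelihood test, Benjamini-Hochberg adjusted p under 0.05 over all 11551 genes tested). Over all genes tested, 1.9% were called higher and 0.805% lower. Among known genes alone these shares were 2.46% and 0.522%, against 5 of 42 higher and 0 of 42 lower here. At an unadjusted p under 0.05, 14 helicase genes were higher and 1 was lower, beside 11.8% and 8.17% of all genes and 14.8% and 6.92% of known genes tested. DESeq2 likewise called none lower, and 4 higher, of the 34 to which it gave an adjusted p, beside 4.05% of all genes called higher and 1.19% lower. Its 4 were Dhx15, Ddx21, Ddx1 and Dhx9, and it gave Ddx20 and Dhx40 no adjusted p. The 5 genes that rose in edgeR were Dhx15, Ddx20, Dhx40, Ddx21 and Ddx1. By the roles used here, Dhx15 falls under splicing, Dhx40 under other or little known role and Ddx21 under ribosome making. Ddx20 and Ddx1 share the group of transcription, small RNA and snRNP assembly, so no single role held all 5. The median log2 fold change of the 42 was 0.09, against -0.02 over all genes and 0.04 over known genes tested, and the sign of this median depended on a length offset (-0.04, with -0.04 over all genes).

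Dhx15, the counterpart of yeast Prp43, releases the spliced-out lariat by taking apart the spent spliceosome. It had 14.6, 17.7 and 16.2 CPM in Rb2 replicates 1 to 3, against 3.64, 4.88 and 8.04 CPM in Ctrl replicates 1 to 3. Every Rb2 value lay above the highest Ctrl value, and Ctrl replicate 3 was the nearest of the controls. The means were 16.2 ± 1.54 CPM in Rb2 and 5.52 ± 2.27 CPM in Ctrl (SD, n = 3 each), a log2 fold change of 1.57 with a standard error of 0.28 (adjusted p = 0.0302 in edgeR). The gene is 3007 bases long, and its count rested on 1 annotated transcript.

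Ddx20 encodes Gemin3, a member of the SMN complex that loads Sm proteins onto spliceosomal snRNAs. It had 5.87, 5.03 and 5.15 CPM in Rb2, against 1.21, 1.99 and 2.45 CPM in Ctrl. The groups did not overlap, at counts of 28 to 33 in Rb2 and 10 to 14 in Ctrl libraries (log2 fold change 1.54, standard error 0.30, adjusted p = 0.0369 in edgeR; length 2801 bases). Dhx40, a DEAH box gene of little known function and 3731 bases long, had 3.56, 4.33 and 4.05 CPM in Rb2, against 1.58, 1.27 and 1.75 CPM in Ctrl. It too was separated between groups (log2 fold change 1.36, standard error 0.28, adjusted p = 0.0423 in edgeR), from 20 to 25 counts in Rb2 and 7 to 13 in Ctrl.

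Ddx21, a nucleolar helicase of rRNA transcription and processing, was more abundant and moved less. It had 88.6, 96.7 and 90.9 CPM in Rb2, against 43.7, 58.2 and 60.8 CPM in Ctrl. Ctrl replicate 1 was the lowest and no Ctrl value reached the Rb2 range (log2 fold change 0.77, standard error 0.14, adjusted p = 0.0327 in edgeR; length 4693 bases). Ddx1, which works with the tRNA ligase complex, had 296.1, 309.2 and 286.6 CPM in Rb2, against 150.3, 177.7 and 219.8 CPM in Ctrl. Its groups were likewise apart (log2 fold change 0.70, standard error 0.13, adjusted p = 0.0356 in edgeR; length 3055 bases).

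**Figure D1:**
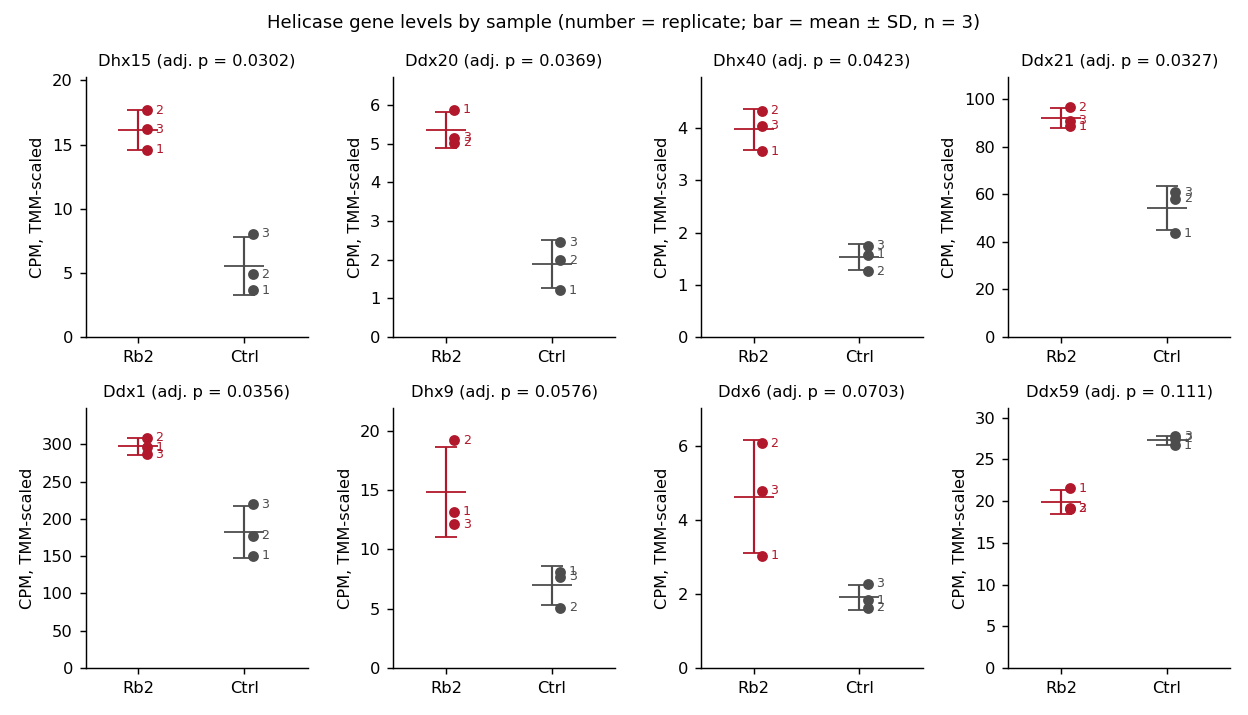
TMM-scaled CPM of 8 helicase genes in each Rb2 sample (red) and each Ctrl sample (grey), with the mean and SD of 3 samples and the replicate number beside each point. Dhx15, Ddx20, Dhx40, Ddx21 and Ddx1 were called higher, while Dhx9, Ddx6 and Ddx59 had groups that did not overlap but adjusted p-values of 0.0576, 0.0703 and 0.111.

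In Dhx15, Ddx20, Ddx21 and Ddx1 the lowest Ctrl value was that of replicate 1 and the highest that of replicate 3, the order in which these libraries lie on the first component. Without Ctrl replicate 1 all 5 genes were still called, with log2 fold changes of 1.33, 1.28, 1.40, 0.65 and 0.60 for Dhx15, Ddx20, Dhx40, Ddx21 and Ddx1. Dhx9 and Ddx46 joined them there (edgeR adjusted p = 0.0139 and 0.0356), beside 5.08% of all genes called higher. All 5 also kept their call without Ctrl replicate 3. Without Ctrl replicate 2, or without Rb2 replicate 1, 2 or 3, none of the 5 was called. The adjusted p of Dhx15 was then 0.146, 0.0801, 0.188 and 0.150, and those fits called 0.0167%, 0.205%, 0% and 0.00826% of all genes higher. Fold changes of the 5 genes stayed above 0 in each of these fits, which groups that do not overlap fix beforehand.

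Calls of helicase genes also differed with scaling, filter and model, and those in the lower direction were 0 except where named. RLE factors and upper-quartile factors called the same 5 genes, beside 1.58% and 1.17% of all genes higher and 0.753% and 0.796% lower. Library size only added Dhx9 and Ddx6, beside 4.01% higher and 0.693% lower, and so did fitting with no filter, beside 1.69% and 0.655%. A mean of at least 5 CPM left Dhx15, Ddx21 and Ddx1 (2.45% and 0.791%), as did known genes only (0.985% and 0.356%). Limma-voom missed Dhx40 (1.06% and 0.476%). The replicate number as a block called none (0.104% and 0.182%). Without Ctrl replicate 3, Ddx50 was added, beside 3.6% higher and 1.76% lower. Lower calls over all genes were 2.45% without Ctrl replicate 1, 0.109% without Ctrl replicate 2, and 0.115%, 0.0247% and 0.0826% without Rb2 replicates 1, 2 and 3. A length offset without Ctrl replicate 1, chosen after seeing the data, called 6 helicase genes higher and 4 lower (Ddx19a, Ddx39a, Ddx39b and Ddx59), beside 3.79% and 4.82% of all genes.

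**Figure D2:**
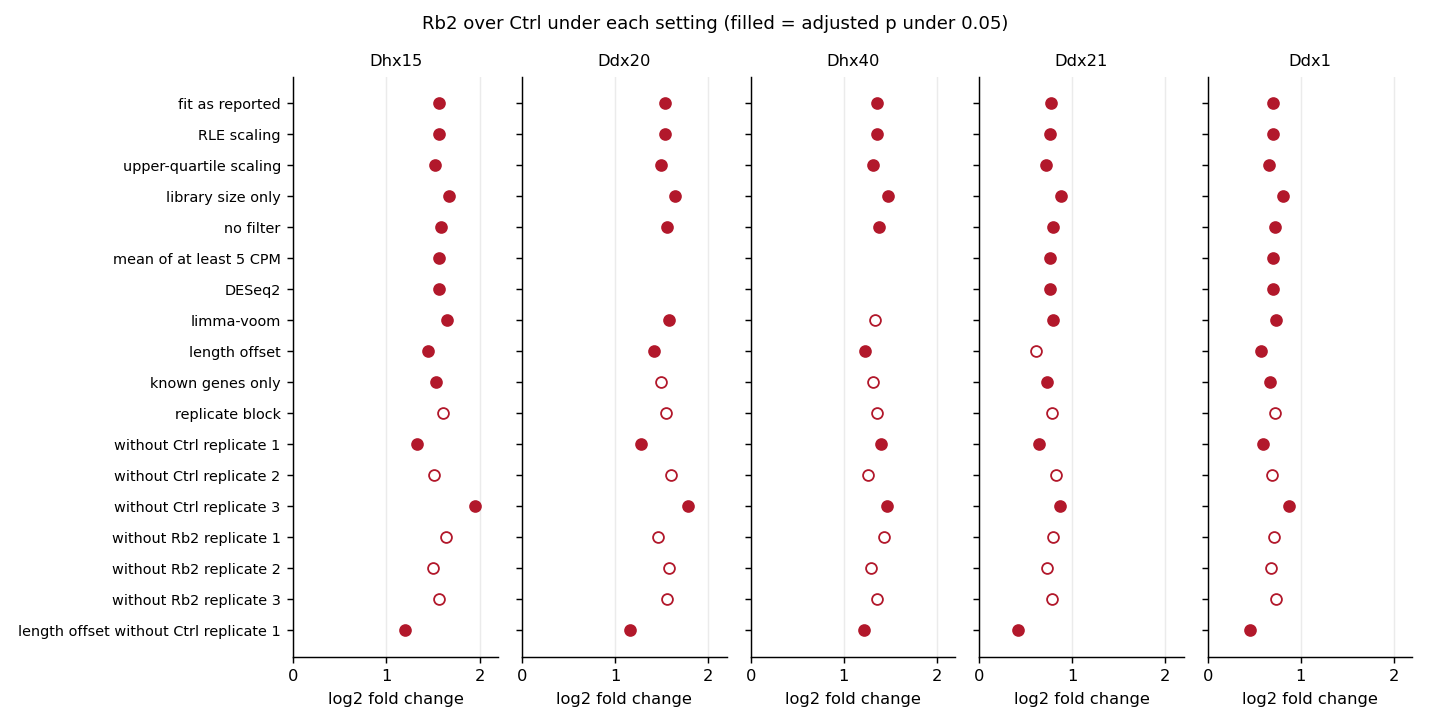
Log2 fold change of Rb2 over Ctrl for the 5 called helicase genes under the fit as reported and each alternative, filled where the adjusted p was under 0.05; a missing point had no adjusted p or was not fitted. All points lie above 0, and 4 of the 6 fits that leave out a sample hold no filled point.

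The promoters of 3 of the 5 called genes, Dhx15, Ddx20 and Ddx21, are shown. The kinds of motif marked are the same in Dhx15 and Ddx20 and differ in Ddx21. Each window, taken from RefSeq (GRCr8), runs from 250 bases before to 50 after the annotated start and is written in the direction of transcription. Capitals mark matches, on either strand, to the CCAAT box (CCAAT), GC box (GGGCGG), ETS core (CCGGAAG) and YY1 core (ATGGCGG), and matches may overlap.
Dhx15 promoter, GRCr8 chr14:62999648-62999947, plus strand: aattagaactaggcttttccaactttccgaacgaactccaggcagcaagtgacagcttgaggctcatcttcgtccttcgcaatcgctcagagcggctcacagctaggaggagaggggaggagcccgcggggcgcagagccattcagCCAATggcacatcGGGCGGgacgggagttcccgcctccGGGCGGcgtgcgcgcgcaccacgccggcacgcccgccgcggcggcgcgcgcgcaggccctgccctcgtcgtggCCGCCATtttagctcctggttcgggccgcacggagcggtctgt
Ddx20 promoter, GRCr8 chr2:195855047-195855346, minus strand: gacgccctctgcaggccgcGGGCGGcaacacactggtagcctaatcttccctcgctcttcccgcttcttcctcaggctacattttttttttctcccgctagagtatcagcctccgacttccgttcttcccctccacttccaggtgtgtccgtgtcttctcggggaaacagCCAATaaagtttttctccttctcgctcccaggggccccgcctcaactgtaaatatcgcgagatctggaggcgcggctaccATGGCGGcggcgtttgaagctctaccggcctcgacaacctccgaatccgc
Ddx21 promoter, GRCr8 chr20:31097189-31097488, minus strand: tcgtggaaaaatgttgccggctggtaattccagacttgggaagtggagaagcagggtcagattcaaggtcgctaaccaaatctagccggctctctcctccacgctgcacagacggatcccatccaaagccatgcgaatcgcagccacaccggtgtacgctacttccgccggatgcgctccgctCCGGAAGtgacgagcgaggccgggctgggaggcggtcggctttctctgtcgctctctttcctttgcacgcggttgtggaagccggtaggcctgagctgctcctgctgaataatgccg
Dhx15 and Ddx20 each held a CCAAT box, at least 1 GC box and a YY1 core, whereas Ddx21 held an ETS core and none of the other 3. In both Dhx15 and Ddx20 the YY1 core lies at or after the annotated start. Of the called genes not shown, Ddx1 held a CCAAT box, a GC box and an ETS core together. Dhx40 held only a GC box of these motifs. A window was found for 44 of the 49 genes. An ETS core stood in 19 of the 44, a GC box in 26, a YY1 core in 8 and a CCAAT box in 21. Among 33469 RefSeq windows of the same length the shares were 8.75%, 33.1%, 4.80% and 37.5%, and the helicase windows were richer in G and C, with a median of 57.3% against 51.7%. The RefSeq windows were not limited to genes tested here, so these shares do not show traits particular to helicase genes. Windows of the 5 called genes held an ETS core in 2, a GC box in 4, a YY1 core in 2 and a CCAAT box in 3. No helicase window held TATAAA, the TATA box, which 14.2% of all windows held. The ATF4 site TGATGNAA was in 1 of the 44 helicase windows (2.27%), beside 3.98% of all windows. The core ACGTG of hypoxia elements was in 18 (40.9%), beside 19.3% of all windows. Among the called genes it was only in the window of Dhx40, where it also lies within an E-box (CACGTG). The E-box was in 6 helicase windows, the NRF1 core GCGCATGC in 5 and the cAMP response element TGACGTCA in 5. Those shares were 13.6%, 11.4% and 11.4%, beside 6.42%, 2.47% and 1.83% of all windows. All of these are matches of letters, and they do not show binding.

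Of the splicing helicases, 10 of 10 were tested, 1 rose (Dhx15) and 9 did not pass, with 6 log2 fold changes above 0 and a median of 0.05. Over all genes tested 5547 of 11551 lay above 0, and over known genes 4548 of 8426. The DEAH box ATPases that act in turn on the spliceosome besides Dhx15 are Dhx16, Dhx38 and Dhx8, the counterparts of yeast Prp2, Prp16 and Prp22. Their log2 fold changes were -0.48, -0.26 and -0.03, with lengths of 5197, 4434 and 4551 bases, and their groups overlapped. Ddx46 and Ddx42, which act with the U2 snRNP at the branch site, did not overlap between groups. Ddx46 averaged 54.8 ± 1.70 CPM in Rb2 and 40.8 ± 4.83 CPM in Ctrl (SD, n = 3 each), and it did not pass (log2 fold change 0.43, edgeR adjusted p = 0.105). Ddx42 had 32.6, 24.4 and 26.5 CPM in Rb2, against 19.8, 20.1 and 20.1 CPM in Ctrl (log2 fold change 0.48, edgeR adjusted p = 0.129). Ddx39b (UAP56), which helps the U2 snRNP join and then hands mRNA to export, was the most abundant of the group per kilobase of gene length. It had 286.0, 261.2 and 270.3 CPM in Rb2, against 202.6, 281.1 and 303.1 CPM in Ctrl, and the Rb2 values lay inside the Ctrl range (log2 fold change 0.06, which turned sign under the length offset, edgeR adjusted p = 0.857). Ddx23, the counterpart of Prp28, and Ddx41, found in late spliceosomes, had log2 fold changes of 0.05 and -0.09, and Dhx35 of 0.05.

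In the ribosome-making group 15 of 16 genes were tested, 1 rose (Ddx21) and 14 did not pass. Of their log2 fold changes 8 were above 0 and 7 below, with a median of 0.01, beside 4548 of 8426 known genes above 0. After Ddx21 the larger positive values were those of Ddx31 (0.71), Ddx52 (0.68) and Ddx50 (0.66), with adjusted p-values of 0.146, 0.245 and 0.115 in edgeR. The groups of Ddx31 did not overlap, and those of Ddx52 did. Ddx50 is the close paralog of Ddx21 and its next protein-coding neighbour in the RefSeq annotation, and it had 18.5, 16.5 and 16.9 CPM in Rb2, against 8.74, 10.1 and 14.2 CPM in Ctrl, with no overlap. Reads from these paralogs could be split between them in counting. Ddx18, the counterpart of yeast Has1, was the most abundant of the group per kilobase of gene length. It had 78.8, 74.9 and 72.7 CPM in Rb2, against 59.7, 67.1 and 72.5 CPM in Ctrl, so that the groups were separated by a narrow margin (log2 fold change 0.19, edgeR adjusted p = 0.398). The lowest fold changes of the group were in Ddx27 (-0.31), Ddx47 (-0.20) and Dhx37 (-0.19), which are nucleolar factors of the large and small subunits, and their groups overlapped. Ddx10 was at 0.42, and Ddx24, Ddx49, Ddx51, Ddx54, Ddx55 and Ddx56 lay between -0.13 and 0.08. Gene lengths in the group ran from 2255 to 4693 bases.

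Of 3 genes of RNA decay and repression, Ddx6 alone was tested. Ddx6, which holds deadenylated mRNA in repression and promotes decapping, had 3.03, 6.07 and 4.78 CPM in Rb2, against 1.82, 1.63 and 2.27 CPM in Ctrl. The groups did not overlap, but Rb2 replicate 1 lay near them and the gene did not pass (log2 fold change 1.27, standard error 0.33, adjusted p = 0.0703 in edgeR; length 2698 bases). With library size as the only scaling it passed (edgeR adjusted p = 0.0497), and so it did with no filter on low counts. Dhx36, which unwinds G-quadruplexes, had 3 to 4 counts in Rb2 libraries and 1 to 3 in Ctrl libraries, and Dhx34, of nonsense-mediated decay, at most 2.

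Among the genes of transcription, small RNA and snRNP assembly, 5 of 5 were tested and 2 rose (Ddx20 and Ddx1). All 5 log2 fold changes were above 0, with a median of 0.70, beside 5547 of 11551 genes and 4548 of 8426 known genes tested above 0. Dhx9, or RNA helicase A, opens long double-stranded RNA and had 13.2, 19.2 and 12.1 CPM in Rb2, against 8.13, 5.06 and 7.69 CPM in Ctrl. Its groups were apart but its Rb2 values were uneven (log2 fold change 1.08, standard error 0.25, adjusted p = 0.0576 in edgeR; length 4647 bases), and DESeq2 called it (adjusted p = 0.0184). Ddx5 and Ddx17, paralogs that assist Drosha and many transcription factors, had log2 fold changes of 0.25 and 0.04 and overlapping groups. Ddx5 is 6011 bases long, and the log2 value with the length offset was 0.07.

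The export, translation and mitochondrial genes held no call. Ddx39a, the export paralog of Ddx39b, was by the mean of all samples the most abundant helicase gene per kilobase of gene length. It had 225.0, 217.0 and 205.3 CPM in Rb2, against 181.8, 242.9 and 264.7 CPM in Ctrl (log2 fold change -0.09, edgeR adjusted p = 0.755). Its Rb2 values lay within the Ctrl range, and its sign turned with library size only. Ddx39a and Ddx39b are close paralogs, and reads could be split between them in counting. Ddx25, known from testis, had 7 to 12 counts in Rb2 and 5 to 11 in Ctrl libraries (log2 fold change 0.51, adjusted p = 0.533). Dhx29, which helps ribosomes scan structured leaders, had 12.6, 13.3 and 13.4 CPM in Rb2, against 10.8, 6.87 and 10.1 CPM in Ctrl. Its groups did not overlap and it did not pass (log2 fold change 0.49, edgeR adjusted p = 0.226; length 4987 bases). Ddx19a, which releases mRNA at the nuclear pore and at 9460 bases is the longest of the 49, had a log2 fold change of 0.02. The other translation member, Ddx3x, had groups that did not overlap, at 5.52 to 6.24 CPM in Rb2 and 3.43 to 5.42 CPM in Ctrl. It did not pass (log2 fold change 0.38, edgeR adjusted p = 0.407). Of the pair that assists the mitochondrial ribosome, Dhx30 had 31.3, 26.9 and 31.8 CPM in Rb2, against 29.4, 25.1 and 32.1 CPM in Ctrl. Ddx28 had 10.5, 12.1 and 13.2 CPM in Rb2, against 8.13, 12.1 and 11.7 CPM in Ctrl. Both overlapped between groups, with log2 fold changes of 0.05 and 0.18, and the sign of Dhx30 turned under the length offset.

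The tested genes of other or little known role were Dhx40, which rose, and Dhx32, Dhx57 and Ddx59, which did not pass. Dhx32 and Dhx57 had log2 fold changes of 0.19 and 0.10 and overlapping groups. One gene lay wholly below the controls. Ddx59, of little known function, had 21.5, 19.1 and 19.1 CPM in Rb2, against 26.7, 27.5 and 27.8 CPM in Ctrl. The Ctrl values were tight and the Rb2 values all lower, yet the gene did not pass (log2 fold change -0.46, standard error 0.14, adjusted p = 0.111 in edgeR; length 2231 bases). In all, 14 of the 42 genes had every Rb2 value above every Ctrl value and 1 the reverse, beside 15% and 12.2% of all genes tested and 18.3% and 10.4% of known genes tested.

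**Figure D3:**
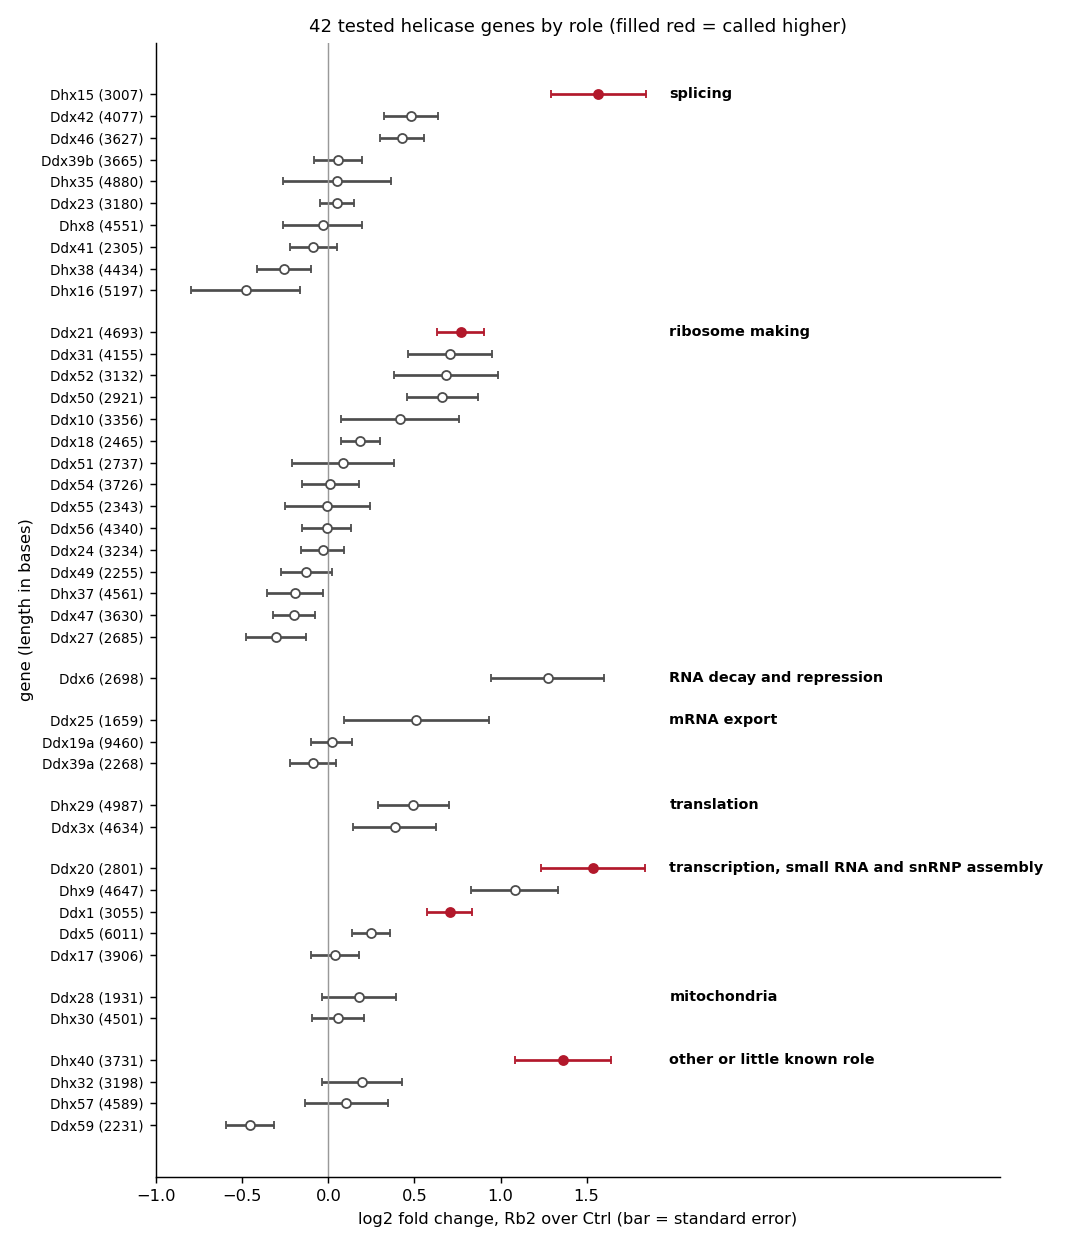
Log2 fold change of Rb2 over Ctrl with its standard error for the 42 tested helicase genes, arranged by role and labelled with gene length in bases. Filled red points are the 5 genes called higher; the lowest values are those of Dhx16 (-0.48) and Ddx59 (-0.46), neither of them called.

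The 7 untested genes were Dhx33, Dhx34, Dhx36, Ddx11, Ddx43, Ddx58 and Dhx58. Ddx58 (RIG-I) and Dhx58 (LGP2), which sense viral RNA, had at most 4 counts and 1 count in any library. Ddx11 and Ddx43 had 1 and 2 counts in a single Rb2 library and no count in Ctrl, where a count of 0 allows up to 0.364 to 0.542 CPM. Differences in these genes were not detectable at this depth.

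Levels between genes were compared per kilobase of the deposited gene length, a scale that holds only if counts grow with length. That length can exceed that of the transcript with most counts. Ddx39b is 3665 bases long, but Ddx39b-201, with 97.0% of its counts in Rb2 and 97.4% in Ctrl, has 1700. Ddx39a is 2268 bases long, but ONT.8639.1, with 90.4% in Rb2 and in Ctrl, has 1590. The order of genes therefore depends on the length used. On the gene length, by the mean of all samples, Ddx39a stood first at 98.2 CPM per kilobase, followed by Ddx1 (78.5) and Ddx39b (73.0). Ddx1 was at 97.3 CPM per kilobase in Rb2 and 59.8 in Ctrl, and Ddx39a was at 95.1 in Rb2 and 101.3 in Ctrl. Dhx15, in place 26 of the 49, was at 5.37 in Rb2 and 1.84 in Ctrl, while Dhx38 was at 4.45 in Rb2 and 5.33 in Ctrl. Ddx20 and Dhx40 were rarer still, at 1.91 and 1.07 in Rb2 and 0.67 and 0.41 in Ctrl.

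Gene length went with fold change over known genes. Their median log2 fold change was -0.04 in those of 303 to 1775 bases and 0.08 in those of 3761 to 27070 bases, the shortest and longest of 4 classes of equal size, and 1.52% and 3.23% of genes were called higher there. Across 8426 known genes Spearman's rho was 0.11, and across the 42 helicase genes it was 0.03. These points share libraries and genes are not independent replicates. The helicase genes were long, with a median of 3628.5 bases among those tested, against 2594.5 bases for known genes. The 5 called genes had a median of 3055 bases, against 3630 bases for the 37 not called. All 5 were longer than the median known gene. After a length offset fitted per library, Dhx15, Ddx20, Dhx40 and Ddx1 were still called, with log2 fold changes of 1.44, 1.41, 1.23 and 0.58. Ddx21 was not (0.62, edgeR adjusted p = 0.0843), beside 1.17% of all genes called higher and 0.987% lower.

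**Figure D4:**
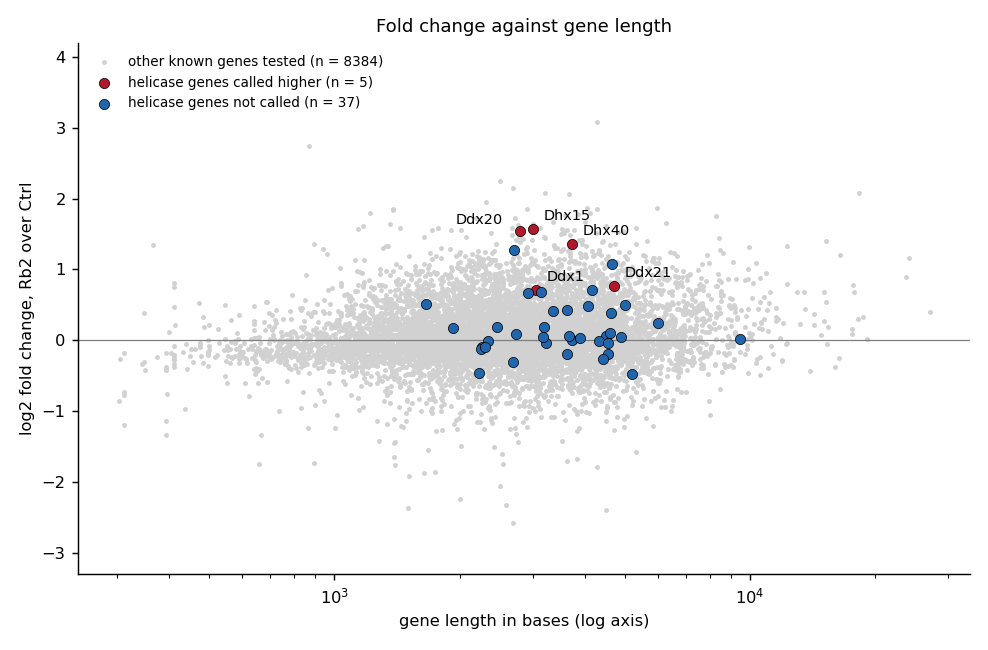
Log2 fold change of Rb2 over Ctrl against gene length in bases (log axis) for other known genes tested (grey), 37 helicase genes not called (blue) and 5 called higher (red). The called genes lie between 2801 and 4693 bases, and the tested helicase genes between 1659 and 9460 bases.

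The transcript table held 137 transcripts of these 49 genes, 64 annotated and 73 new models. Of 71 tested with edgeR none was called, while 11 were higher and 1 lower at an unadjusted p under 0.05. No transcript of any gene was called either (0% of 16679), with 13.8% under 0.05 before adjustment. On simulated counts this step found 8 of 100 transcripts altered 2-fold and 66 of 100 altered 4-fold, so most changes of the smaller size would be missed. It also called 13 transcripts that were not altered. The smallest p-values belonged to Ddx1-201, Dhx15-201, Ddx20-201 and ONT.10975.2, a new model of Ddx21, with log2 fold changes of 0.71, 1.55, 1.51 and 0.79 and adjusted p-values of 0.158, 0.159, 0.164 and 0.171. DESeq2 called 3 of them, those of Dhx15, Ddx1 and Ddx21, beside 4.21% of all transcripts. Ddx1-201 took 98.7% ± 0.24 of the counts of its gene in Rb2 and 98.0% ± 0.23 in Ctrl (SD, n = 3 each). For Ddx21 the annotated Ddx21-201 took 6.73% ± 5.87 in Rb2 and 4.34% ± 3.78 in Ctrl, and ONT.10975.2 took 89.2%, 82.4% and 93.1% in Rb2 and 79.7%, 89.4% and 87.9% in Ctrl. Most counts of Ddx21 were thus assigned to a new model of 4398 bases whose making is not described.

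How counts divide among the transcripts of a gene was tested in 20 helicase genes and called in none (diffSpliceDGE of edgeR, Simes p), with none at an unadjusted p under 0.05. Of all 3361 genes tested, 0.417% were called. On simulated counts of 3095 genes this step found 0 of 100 changes of 2-fold and 17 of 100 of 4-fold, so it could call few changes of usage. It also called 11 genes that were not altered, so calls of usage over all genes can be false. The gene with the lowest Simes value was Ddx47, whose Ddx47-201 took 94.2% ± 0.88 in Rb2 and 91.2% ± 3.02 in Ctrl, and the new model ONT.12828.9 took 1.84% ± 0.60 in Rb2 and 4.40% ± 3.88 in Ctrl. Dhx37 followed, with Dhx37-201 taking 89.0%, 100% and 78.0% in Rb2 and 54.1%, 72.2% and 89.9% in Ctrl and the short model ONT.4890.5 taking the rest. In Ddx19a, Ddx19a-201 took 43.2% ± 3.70 in Rb2 and 33.5% ± 8.98 in Ctrl, and ONT.8780.4 took 38.0% ± 2.59 in Rb2 and 39.7% ± 4.27 in Ctrl. Each of these differences was about the size of the Ctrl SD or smaller.

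Related genes were read from lists that, like the roles, were chosen with earlier results of these data known. Their counts stand beside 1.9% of all genes and 2.46% of known genes called higher, and 11.8% and 14.8% higher at an unadjusted p under 0.05. Among helicases of the same superfamily under other symbols, 12 of 18 with a row were tested and none was called (4 higher and 0 lower at an unadjusted p under 0.05 in edgeR), with a median log2 fold change of 0.22. Eif4a1, which unwinds leaders for translation initiation, was at 413.4, 487.9 and 490.3 CPM in Rb2, against 290.7, 387.2 and 435.6 CPM in Ctrl, with overlapping groups (0.32, adjusted p = 0.253). Of 16 G-patch protein genes tested, 1 rose, Son, and 15 did not pass (3 higher and 0 lower before adjustment), with a median of -0.01. Son, a large speckle protein needed for splicing of weak introns, averaged 32.8 ± 0.73 CPM in Rb2 and 18.0 ± 1.23 CPM in Ctrl (SD, n = 3 each; log2 fold change 0.86, edgeR adjusted p = 0.0232). The Son gene is 9244 bases long and missed the threshold under the length offset (adjusted p = 0.0863).

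No gene was called among 20 direct partners of DEAD box members (4 higher and 0 lower at an unadjusted p under 0.05, median 0.17) or among 22 core spliceosome proteins (5 and 1, median 0.24) in edgeR. Their most abundant genes, Thoc7 of the export complex and Prpf19 of the spliceosome, had log2 fold changes of 0.08 and 0.03, both of which turned sign under the length offset. Of 31 ribosome assembly factors 2 rose and 29 did not pass (8 higher and 2 lower before adjustment), with a median of 0.13. Npm1, the nucleolar chaperone nucleophosmin, averaged 546.3 ± 22.6 CPM in Rb2 and 353.9 ± 53.1 CPM in Ctrl (log2 fold change 0.63, edgeR adjusted p = 0.0327). Nop58, a core protein of box C/D snoRNPs, averaged 59.1 ± 5.48 CPM in Rb2 and 31.8 ± 8.72 CPM in Ctrl (0.90, adjusted p = 0.0471), and it missed the threshold with upper-quartile factors (0.0501), limma-voom (0.0519) and known genes only (0.0558). Of 27 RNA decay factors 1 rose and 26 did not pass (2 higher and 1 lower before adjustment), with a median of 0.04. The gene that rose was Xrn2, the nuclear exonuclease that ends transcription and trims rRNA, at 38.6 ± 2.11 CPM in Rb2 and 21.2 ± 1.28 CPM in Ctrl (0.87, adjusted p = 0.0207). In these lists too the calls on Son, Npm1, Nop58 and Xrn2 were lost without Ctrl replicate 2 and without any 1 of the Rb2 replicates.

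**Figure D5:**
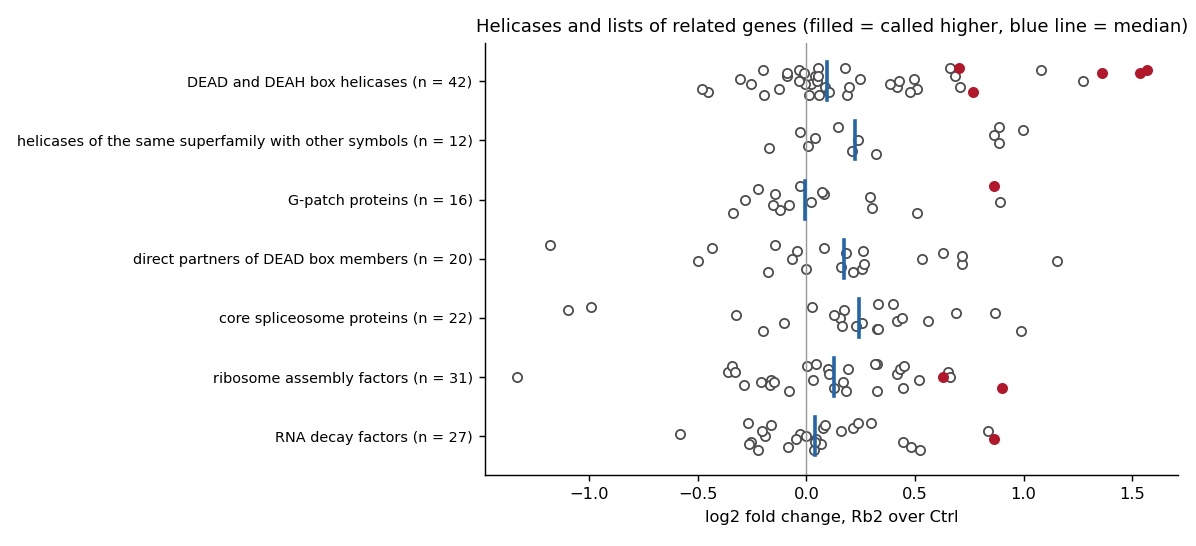
Log2 fold change of Rb2 over Ctrl for the tested helicase genes and for 6 lists of related genes, 1 point a gene, filled where called higher, with a blue line at the median. Medians run from -0.01 (G-patch proteins) to 0.24 (core spliceosome proteins), and the helicase genes have 5 filled points.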

How the data were processed

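As deposited by the authors, the values are raw counts, 1 row a gene or transcript, with the model's length. Per the submitters' processing notes, HISAT2, DESeq2 and mm10 (a mouse build) were involved in roles not stated; the identifiers are those of rat. The sources used here give no counter, annotation or strand setting. In each file, 18 columns matched no sample and were left aside, as were the deposited scaled expression tables. Known genes carry annotated identifiers; transcripts whose name begins with ONT are new models, and whether reads were long or short is not settled.

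The 3 Rb2 samples were compared with the 3 Ctrl samples in edgeR 4.0.16 (R 4.3.3): scaling by TMM, low genes removed with filterByExpr, and a robust quasi-likelihood fit with group as its one term. P-values were adjusted by Benjamini-Hochberg over the whole table. CPM are scaled by TMM, and standard errors were taken as the size of the log2 change over the root of F. Transcript usage used diffSpliceDGE where 2 or more transcripts of a gene passed the filter. Genes named with every value were the called ones and, in each role, the most abundant per kilobase of gene length and the one with the smallest p. Dhx9, Ddx42, Ddx46 and Ddx50 were added after their values were seen. For transcripts the 4 smallest p-values are named, for usage 3 genes, and for each list up to 3 called genes or the most abundant. Of the lists, 2, 1 and 2 symbols of the superfamily helicases, ribosome assembly factors and RNA decay factors matched no row. The genes, roles and lists were chosen with earlier results of these data known. Alternatives were other scalings, filters, DESeq2 1.42.0, limma-voom (limma 3.58.1), a length offset (loess, span 0.5), known genes only, the replicate number as a block, and each sample left out. In a check on simulated counts of 11551 genes, the fit found 54 of the 100 altered 2-fold, 95 of the 100 altered 4-fold, and 14 that were not altered; transcripts and usage were simulated likewise.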

Additional observations from a re-analysis of the deposited data

How the results depend on the processing

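Of the 5 helicase genes called higher, 3 were called with a mean of at least 5 CPM (34 genes left, without Ddx20 and Dhx40), 3 with known genes only and 0 with the replicate block. Leaving out 1 sample gave 0 to 7 genes higher and 0 to 0 lower. With a length offset and without Ctrl replicate 1, chosen after seeing the data, 6 were higher and 4 lower (Ddx19a, Ddx39a, Ddx39b and Ddx59), beside 3.79% and 4.82% of all genes; the cause was not tested. Other settings gave 4 to 7 higher and none lower. DESeq2 called 3 helicase transcripts where edgeR called none; other settings, and those for usage, kept 0. With library size only the median log2 value was 0.10 over all genes, against -0.02 as reported, and 0.21 over the helicase genes.

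No label says whether the replicate numbers pair the samples. Deviations from group means correlated at -0.067, -0.061 and -0.0067 in the same-numbered pairs, and from -0.12 to 0.16 in the others. Such values cannot settle whether samples were paired, since a small shared effect could leave them near 0. The block took the count of called helicase genes to 0 and left 0.104% of all genes called higher. With the block Son, Npm1, Nop58 and Xrn2 missed the threshold too (edgeR adjusted p = 0.0612 to 0.0804). Ddx39a turned sign with library size only (0.019) and without Ctrl replicate 3 (0.039), and Ddx39b with the length offset (-0.087), without Ctrl replicate 1 (-0.083) and with both (-0.27). Dhx30 turned with the length offset (-0.079), without Ctrl replicate 2 (-0.028) and with the offset and no Ctrl replicate 1 (-0.13), where Ddx28 did too (-0.045). Thoc7 turned with the length offset (-0.030), and Prpf19 with upper-quartile factors (-0.017), the length offset (-0.069), known genes only (-0.013), without Ctrl replicate 1 (-0.11) and with both (-0.19). Over the 6 fits leaving out a sample, Ddx39a ran from -0.22 to 0.039, Dhx30 from -0.028 to 0.15, Ddx39b from -0.083 to 0.19 and Prpf19 from -0.11 to 0.13. None of these genes was called as reported, and the cause was not tested. The 7 untested genes had too few counts to pass the filter.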

Other observations

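Ratios within each library do not depend on scaling between libraries, and 3 were taken after the values had been seen. Dhx15 over the sum of Dhx8, Dhx16 and Dhx38 was 0.451, 0.650 and 0.587 in Rb2, against 0.104, 0.143 and 0.245 in Ctrl (exact two-sided permutation p = 0.1, the smallest that 3 against 3 allows). Ddx20 over the sum of Gemin2, Gemin4 and Gemin5, its partners in the SMN complex, was 0.232, 0.200 and 0.217 in Rb2, against 0.0694, 0.0846 and 0.104 in Ctrl (exact p = 0.1). Both ratios were higher in 3 of 3 Rb2 samples than in any Ctrl sample. Ddx21 over its paralog Ddx50 was 4.79, 5.87 and 5.37 in Rb2 and 5, 5.75 and 4.30 in Ctrl (exact p = 0.6), with overlapping groups. Numerator genes were picked for their fold change, so these values describe the libraries and test nothing further.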
